A study of Mus musculus with 12 samples.

Results

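The Schlafen family was followed through 12 RNA sequencing libraries of MC3T3-E1 cells, a mouse preosteoblast line derived from skull bone. The members were the 7 rows of the gene count table carrying the symbols Slfn1, Slfn2, Slfn3, Slfn4, Slfn5, Slfn8 and Slfn9, out of 55291 symbols in all. All cells were wild type, grown in 10% serum, and reached day 0 of bone differentiation 2 days after confluence. The IFN groups received mouse interferon beta, at 50 mg/L per the labels, from the start of differentiation, and were sampled at days 0, 14 and 21. The control groups were sampled on the same days, with differentiation and without IFN. Each of the 6 groups had 2 libraries, and the labels do not say that these came from separate cultures, so the tests measure only the spread between libraries. How long the day 0 IFN cells had been exposed is not stated in the labels. The study addressed type I interferon signalling in osteoblasts.

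Schlafen genes encode proteins with a shared core that binds or cuts RNA, and they fall into short, intermediate and long forms. The long forms add a helicase-like region, and human SLFN11, one of these, blocks HIV protein synthesis. Interferon beta binds the receptor made of Ifnar1 and Ifnar2, and a complex that includes Stat2 and Irf9 then binds interferon response elements, which repeat GAAA with a short gap, in the promoters of its targets. Mouse Schlafen genes are known mainly from T cells, thymus and macrophages, where several are induced by type I interferon.

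The 7 genes lie in 1 cluster on mouse chromosome 11, between positions 82951349 and 83215154 of mm10, a span of 264 kb (gene models of GENCODE M21). From the low end they run Slfn5 on the plus strand, Slfn9 and Slfn8 on the minus strand, then Slfn2, Slfn1, Slfn4 and Slfn3 on the plus strand. The short members Slfn1 and Slfn2 have coding sequences of 337 and 378 codons, and the intermediate members Slfn3 and Slfn4 have 640 and 602. The long members Slfn5, Slfn8 and Slfn9 have 884, 910 and 910 codons. Coding sequences were 92.7% identical over 1788 aligned bases between Slfn3 and Slfn4, and 92.7% identical over 2733 aligned bases between Slfn8 and Slfn9. Slfn1 and Slfn2 were 71.7% identical over 1005 aligned bases. The close copies matter for counting. Of all 100-base windows of its transcripts, 3.71% for Slfn9, 3.38% for Slfn8 and 2.92% for Slfn3 also occurred exactly in a transcript of another gene, against at most 0.271% for each of Slfn1, Slfn2, Slfn4 and Slfn5. How the counting treated reads with several matches is not given in the sources used here. The share of such reads also depends on the read length, which is not stated here. Most of the 100-base windows found elsewhere matched other copies: 181 of 221 for Slfn9 and 105 of 145 for Slfn8 occurred in Slfn10-ps, and 93 of 99 for Slfn3 in Gm11427. With 50-base windows the shares found in another gene were 15.6% for Slfn3, 14.6% for Slfn8, 11.5% for Slfn9 and 10.8% for Slfn4. For Slfn1, Slfn2 and Slfn5 they were at most 4.27%. At 50 bases Slfn3 and Slfn4 had 252 windows in common, 7.39% of those of Slfn3 and 6.28% of those of Slfn4. The values of Slfn3, Slfn4, Slfn8 and Slfn9 are uncertain to an extent that these shares do not fix. Exons of Slfn5 overlap those of its antisense gene Slfn5os by 559 bases. Slfn5os had 0 counts in all 12 libraries, but the strand setting is not given, so this does not show how reads in the overlap were counted.

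The promoters are shown for the 3 members that hold the full interferon response pattern, which are the 3 long members. Each window is from RefSeq (GRCm38.p6), runs from 250 bases before to 50 bases after the annotated start, and is written 5′ to 3′ on the gene's strand, and all 7 members had one. Capitals mark a match to the pattern searched, GAAA followed by any 2 bases and a further GAAA, on either strand. In Slfn8 and Slfn9 the match lies on the other strand and therefore reads as its reverse complement.
Slfn8, chr11:83020761-83021060, minus strand: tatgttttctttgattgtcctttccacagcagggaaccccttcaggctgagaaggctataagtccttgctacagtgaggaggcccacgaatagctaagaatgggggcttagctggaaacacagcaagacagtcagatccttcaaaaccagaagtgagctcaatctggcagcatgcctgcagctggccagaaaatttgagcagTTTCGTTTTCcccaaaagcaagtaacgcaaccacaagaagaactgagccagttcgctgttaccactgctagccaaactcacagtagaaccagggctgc
Slfn9, chr11:82991781-82992080, minus strand: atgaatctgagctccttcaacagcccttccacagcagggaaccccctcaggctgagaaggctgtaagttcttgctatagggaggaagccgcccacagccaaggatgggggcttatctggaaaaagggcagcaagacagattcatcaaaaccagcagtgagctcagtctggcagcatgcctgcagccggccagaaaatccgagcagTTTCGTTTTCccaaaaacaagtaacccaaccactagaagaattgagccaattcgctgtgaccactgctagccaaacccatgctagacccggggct
Slfn5, chr11:82951852-82952151, plus strand: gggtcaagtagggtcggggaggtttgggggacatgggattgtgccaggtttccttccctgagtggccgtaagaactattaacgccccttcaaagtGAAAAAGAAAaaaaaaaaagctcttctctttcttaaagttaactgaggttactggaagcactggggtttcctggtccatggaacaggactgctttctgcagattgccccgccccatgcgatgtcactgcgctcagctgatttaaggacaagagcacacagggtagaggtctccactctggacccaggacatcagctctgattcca
The match began 48 bases upstream of the first of the annotated Slfn8 starts and 45 bases upstream of the Slfn9 start, and both read TTTCGTTTTC. In Slfn5 it began 155 bases upstream of the RefSeq start. The whole Slfn5 window, which begins at position 82951852, lies inside the GENCODE M21 gene model, which begins at 82951349. The bases before that GENCODE start were not searched for the pattern. This pattern occurred in 3 of the 7 members, against 3.44% of 32851 mouse promoter windows of the same length. The Slfn8 and Slfn9 windows were 84.9% identical over 292 aligned bases, so their matches are not independent. The part of the pattern in the IFN differences given below was not tested. The shorter pattern AANNGAAA, where N is any base, is contained in every such match and occurred in 7 of 7 members and in 23.9% of all windows. The palindromic pattern TTCNNNGAA occurred in 0 of 7 members and in 8.3% of all windows.

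The short and intermediate members share a different stretch, shown here because it is found in all 4 of them and in none of the long ones. Capitals mark ACTTCCTGG, a stretch picked after the sequences had been read and then searched on both strands.
Slfn1, chr11:83116734-83116766, plus strand: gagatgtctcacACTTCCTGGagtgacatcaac
Slfn2, chr11:83065045-83065077, plus strand: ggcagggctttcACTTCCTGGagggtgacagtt
Slfn3, chr11:83191276-83191308, plus strand: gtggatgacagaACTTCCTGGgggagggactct
Slfn4, chr11:83175101-83175133, plus strand: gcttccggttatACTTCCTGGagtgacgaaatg
It began between 42 and 74 bases upstream of the start in these 4 genes, and occurred in 0.843% of all windows. These matches describe letters in a window and say nothing about which proteins bound there.

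Library totals ran from 29772425 to 38908453 counts. Values below are CPM, the counts of a gene relative to the library total, scaled by TMM, and fold changes are log2 with their standard error (SE) from edgeR's quasi-likelihood test, with adjusted p over 17289 genes. A gene is called, or said to rise or fall, at an adjusted p below 0.05. The replicate libraries were closer in the IFN groups than in the controls: the median over genes of the SD of log2 CPM was 0.084, 0.088 and 0.11 at days 0, 14 and 21 in the IFN groups and 0.29, 0.24 and 0.44 in the control groups. All 6 osteoblast markers looked at had counts, and their summed level was 1190 to 1200 CPM in IFN cells and 4080 to 6740 CPM in control cells at day 14. Nearly all of that sum was Col1a1, a collagen chain of bone, at a mean of 1086 CPM in IFN cells and 5252 CPM in control cells, while Runx2, a regulator of osteoblast fate, had 94.89 CPM in IFN cells and 102.5 CPM in control cells, and Bglap, which encodes osteocalcin, 0.8579 CPM in IFN cells and 0.5749 CPM in control cells. The other markers, Ibsp, Alpl and Sp7, had 1.439, 4.156 and 12.27 CPM in IFN cells at day 14, against 17.24, 15.37 and 22.31 CPM in control cells. Of the 6 markers, 2 were called lower with IFN at day 14 (Col1a1 and Ibsp), against 0.995% of all genes. The part of the 6 markers in the Schlafen differences was not tested. Of the markers of immune cells in which Schlafen genes are best known, the lymphocyte ones were near 0 in both arms, while some myeloid ones had counts in both. The 8 T and B lymphocyte markers summed to at most 0.909 CPM in any library, with Ms4a1 at 0 in all. The 8 myeloid markers summed to 26.9 to 28.1 CPM in IFN cells and 29.9 to 32.6 CPM in control cells at day 14, and to at most 55.5 CPM in control cells at day 0. Cd14, Lyz2 and Cd68 made up most of it, at 12.91, 9.558 and 4.89 CPM in IFN cells and 8.088, 15.29 and 7.648 CPM in control cells at day 14. Tyrobp was at 0 in all 12 libraries. For comparison, Slfn1 and Slfn4 had 4.084 and 5.71 CPM in IFN cells at day 14. Whether myeloid cells were present was not tested.

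With 14 days of IFN the Schlafen family was far more abundant than in control cells, led by Slfn8 and Slfn2. The 7 genes together reached 1216 ± 6.36 CPM in IFN cells and 101.7 ± 60.6 CPM in control cells (SD, n = 2 each). Of the 7 members, 6 rose and none fell, against 1.3% of all genes tested that rose and 0.995% that fell. Slfn9 did not pass. In RNA from whole cultures, a higher level per cell and a larger share of responding cells cannot be told apart. The median of the 7 log2 fold changes was 4.64, against -0.00748 over all genes. Slfn1 passed the filter on low counts only through IFN libraries at days 14 and 21, and Slfn4 through these and 1 control library. Of the other 5 members, which reached the filter's cutoff in every control library, 4 rose. Without control day 14 replicate 1 the number of members that rose was 3, and in the other 11 fits that each left out 1 library it was between 4 and 7.

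**Figure D1:**
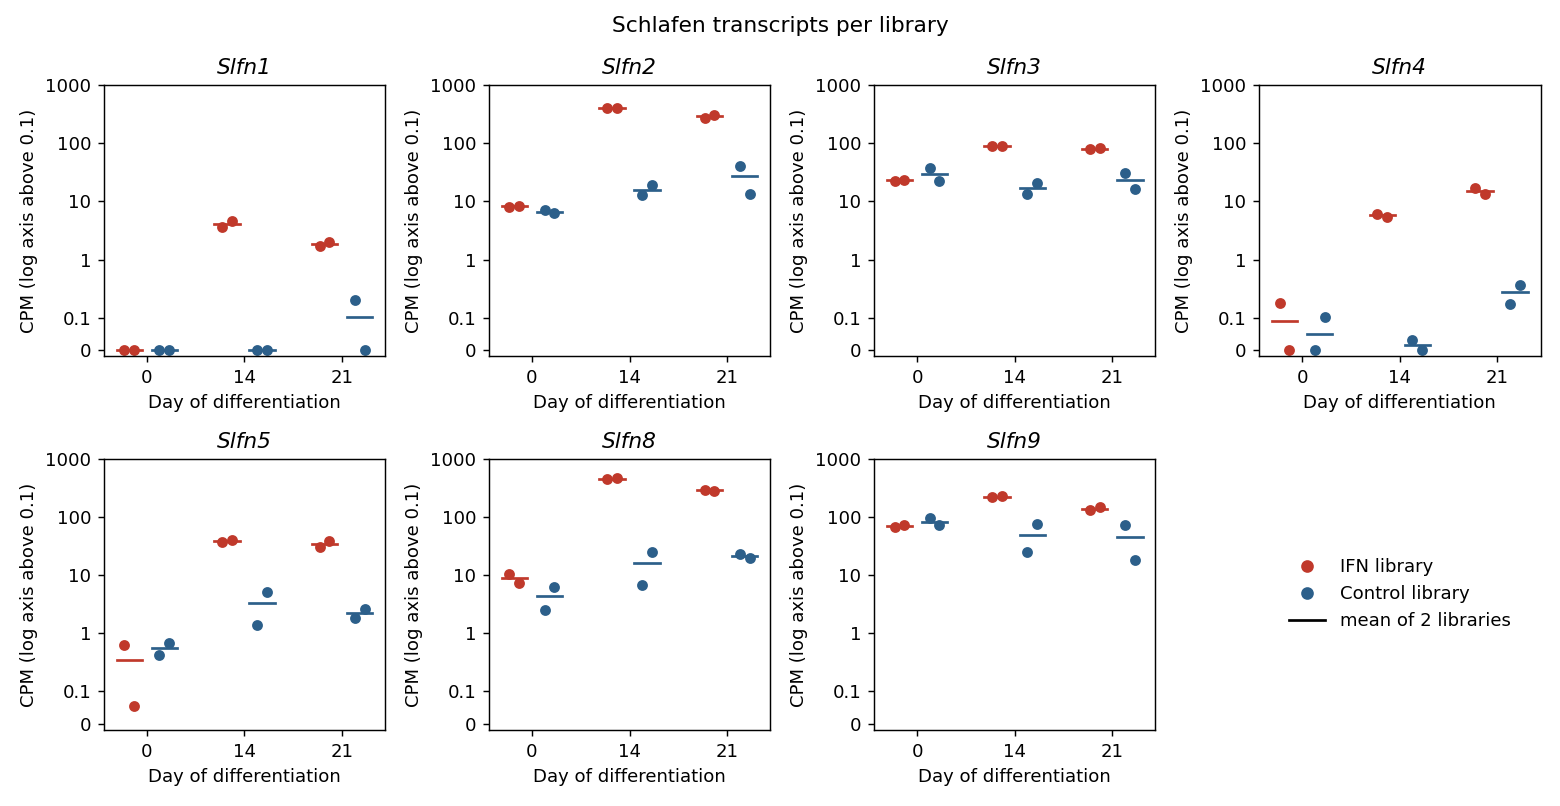
CPM (vertical axis, logarithmic above 0.1 and linear below) of each Schlafen gene by day of differentiation, with 1 point per library (red IFN, blue control) and a line at the mean of 2 libraries. At days 14 and 21 both IFN points lie above both control points for all 7 genes, while at day 0 they do so only for Slfn2 and Slfn8.

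The plot of CPM by library shows this separation for every gene. At day 14 both IFN libraries lay above both control libraries for 7 of 7 members, against 28.6% of all genes.

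Among the short members, Slfn2, which in mice keeps T cells quiescent, had 400.1 and 394.2 CPM in IFN cells at day 14, against 12.73 and 19.04 CPM in control cells. The IFN libraries were nearly equal, and both lay far above the higher control library. The log2 fold change was 4.64 ± 0.46 (SE, adjusted p = 0.00056). Slfn1, the founding member, which slows thymocyte growth when overproduced in mice, had 133 and 140 counts in IFN cells and 0 counts in both control libraries. A floor of 3 counts over the control group puts Slfn1 at least 88.9-fold higher with IFN, and its call had an adjusted p of 0.0159. That call was lost when either IFN day 14 library was left out (adjusted p = 0.0663 and 0.0842) and without control day 14 replicate 1 (0.0925), and DESeq2 did not make it (adjusted p = 0.0569).

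Among the intermediate members, Slfn4, known from monocytes and macrophages, had 219 and 168 counts in IFN cells and 1 and 0 counts in control cells at day 14. From these sums, the scaled ratio was 378, with a 95% interval of 67.5 to 15000 that covers counting error only, and the adjusted p was 0.0032. Slfn3, its closest copy, linked in rats to the maturation of gut epithelium, was already expressed in control cells. Slfn3 had 89.80 and 89.72 CPM in IFN cells at day 14, against 13.34 and 20.60 CPM in control cells, a log2 fold change of 2.40 ± 0.34 (SE, adjusted p = 0.00417). Slfn3 therefore held the smallest of the called differences. It was not called without control day 14 replicate 1, at an adjusted p of 0.0605.

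Among the long members, Slfn8, linked to T cell responses in mice, had 453.1 and 459.0 CPM in IFN cells at day 14, against 6.836 and 25.00 CPM in control cells. The control libraries differed from each other 3.66-fold, and both stayed far under either IFN library. The log2 fold change was 4.84 ± 0.58 (SE, adjusted p = 0.00163), and it was 4.19 without control day 14 replicate 1 and 6.06 without replicate 2. Slfn9, next to Slfn8 and its closest copy, had 221.2 and 226.0 CPM in IFN cells, against 24.51 and 74.67 CPM in control cells, for a log2 fold change of 2.17 ± 0.59 (SE, adjusted p = 0.101). The groups did not overlap, but the spread between the control libraries was wide and the difference was not called. DESeq2 (adjusted p = 0.00215), limma with library weights (adjusted p = 0.000197) and the fit without the filter on low counts did call Slfn9 higher. Slfn5, whose human counterpart represses interferon targets and herpesvirus genes, had 37.08 and 40.80 CPM in IFN cells, against 1.404 and 5.151 CPM in control cells. The log2 fold change of Slfn5 was 3.57 ± 0.67 (SE, adjusted p = 0.021). It was 4.79 without control day 14 replicate 2 and 2.92 without replicate 1. Slfn5 lost its call without control day 14 replicate 1 (adjusted p = 0.127), either IFN day 14 library (0.126 and 0.148) or either IFN day 21 library (0.0511 and 0.0521).

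**Figure D2:**
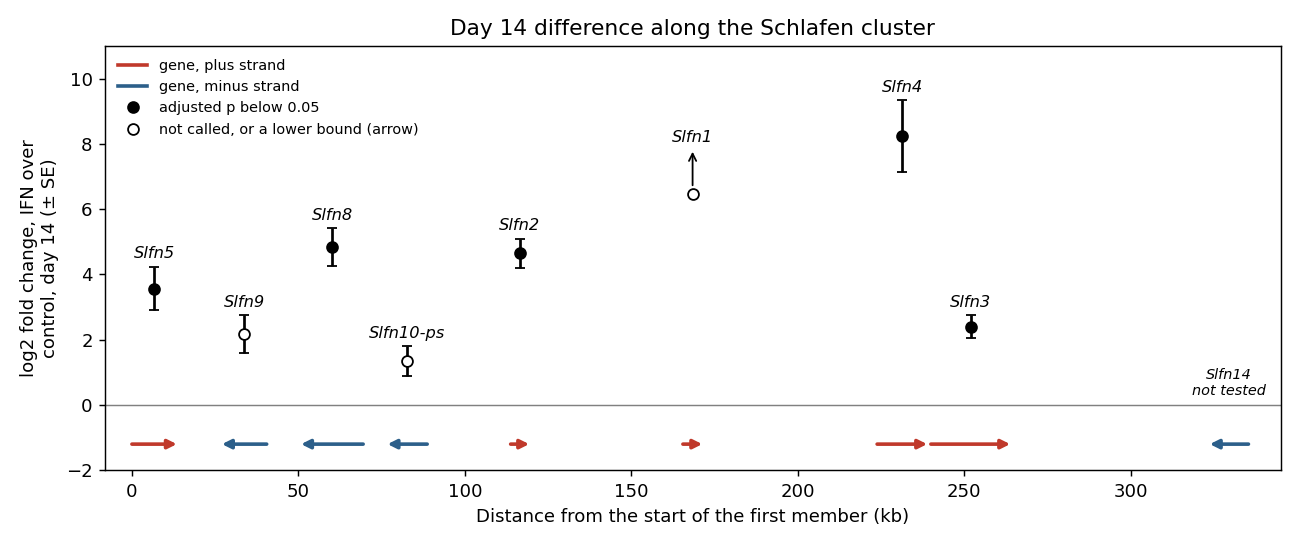
Log2 fold change of IFN over control at day 14 (vertical axis, error bar SE) for the genes of the Schlafen cluster by distance in kb from its first member; arrows along the bottom give gene extent and strand. Slfn1 is drawn at its lower bound of 6.47 although it was called, Slfn4 rests on 1 control count, and Slfn14 was not tested.

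Neighbours in the cluster had differences of unlike size, as the map of the cluster shows. Slfn8 and Slfn9 are neighbours on the same strand, with promoters that were 84.9% identical, and their log2 fold changes at day 14 were 4.84 and 2.17. Slfn4 and Slfn3 are also neighbours, with a ratio of 378 for Slfn4 and a log2 fold change of 2.40 for Slfn3. In both pairs the member with the higher level in control cells had the smaller fold change. The control level is also the denominator of the fold change, so these values are not independent, and Slfn4 rests on 1 control count. No test of the difference between members was run.

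The balance between the close long copies Slfn8 and Slfn9 differed between the arms at day 14. The ratio of Slfn8 to Slfn9 counts within a library, which needs no scaling between libraries, was 2.05 and 2.03 in IFN cells at day 14 and 0.279 and 0.335 in control cells at day 14. At day 21 it was 2.23 and 1.9 in IFN cells and 0.314 and 1.08 in control cells. At day 0 it was 0.152 and 0.102 in IFN cells and 0.0269 and 0.0879 in control cells. Slfn9 was thus the more abundant of the pair in day 0 libraries of both arms, and Slfn8 in IFN libraries at days 14 and 21 and in control day 21 replicate 2.

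At day 21 the family remained higher with IFN, at 844.8 ± 29.8 CPM in IFN cells and 119.9 ± 70.9 CPM in control cells (SD, n = 2 each). Of the 7 members, 5 rose and none fell, against 0.839% of all genes that rose and 0.156% that fell, and their median log2 fold change was 3.74, against -0.011 over all genes. Both IFN libraries again lay above both control libraries for 7 of 7 members, against 20.7% of all genes. Of the 5 members that reached the filter's cutoff in every control library, 4 rose. Slfn2 had 274.7 and 305.8 CPM in IFN cells, against 41.13 and 13.25 CPM in control cells, with a log2 fold change of 3.41 ± 0.43 (SE, adjusted p = 0.00407), which was 4.47 without control day 21 replicate 1 and 2.81 without replicate 2. Slfn8 had 290.9 and 277.7 CPM in IFN cells, against 22.87 and 19.55 CPM in control cells, with a log2 fold change of 3.74 ± 0.55 (SE, adjusted p = 0.0088). These 2 genes were again the most abundant of the family with IFN.

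Slfn4 had 16.94 and 13.38 CPM in IFN cells at day 21, against 0.175 and 0.3702 CPM in control cells, from 6 and 10 control counts. The log2 fold change of Slfn4 was 5.81 ± 0.82 (SE, adjusted p = 0.00707), the largest of the called members at that day. Slfn5 had 29.84 and 38.92 CPM in IFN cells, against 1.809 and 2.629 CPM in control cells, with a log2 fold change of 3.96 ± 0.69 (SE, adjusted p = 0.0233). Slfn3 had 79.20 and 81.50 CPM in IFN cells, against 31.10 and 15.96 CPM in control cells, with a log2 fold change of 1.77 ± 0.33 (SE, adjusted p = 0.0359). The groups did not overlap for any of these 3 genes. Slfn9 and Slfn1 were not called. Slfn9 had 130.4 and 146.5 CPM in IFN cells, against 72.76 and 18.03 CPM in control cells (log2 1.61 ± 0.58 SE, adjusted p = 0.269). Slfn1 had 60 and 69 counts in IFN cells, against 7 and 0 counts in control cells (log2 4.03 ± 0.93 SE, adjusted p = 0.143).

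The number of day 21 calls depended on the libraries in the fit. With only the day 21 libraries in the fit, 1 of the 5 was called (Slfn8), and limma with library weights called 3. The count was 1 without IFN day 21 replicate 1, 2 without IFN day 21 replicate 2, 2 without control day 21 replicate 2, and 3 without either IFN day 14 library. Without control day 21 replicate 1, which held all 7 control counts of Slfn1, all 7 members were called.

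**Figure D3:**
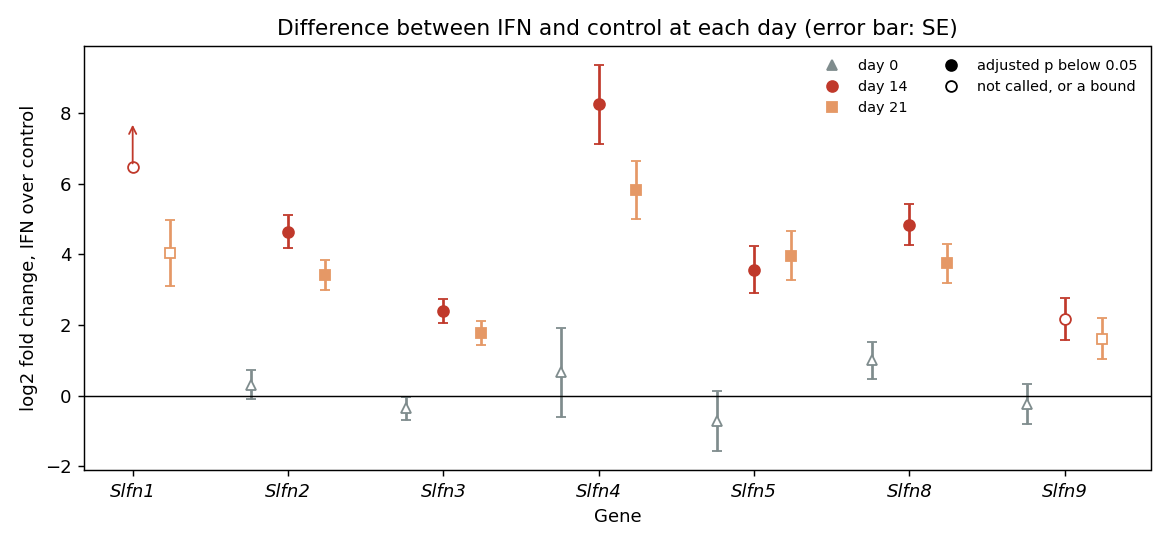
Log2 fold change of IFN over control (vertical axis, error bar SE) for each Schlafen gene at days 0, 14 and 21; filled symbols were called and open ones were not, except that the open day 14 symbol of Slfn1 is its lower bound, and Slfn4 at day 14 is the fitted value on 1 control count. All values at days 14 and 21 lie above 0, and no day 0 value was called.

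At day 0 none of the members differed between the arms by the test, with 0% of all genes rising and 0.00578% falling. The plot of fold changes by day shows 3 of the 6 day 0 values above 0 and 3 below. The nearest to a call was Slfn8, with 10.34 and 7.418 CPM in IFN cells, against 2.555 and 6.298 CPM in control cells (log2 0.99 ± 0.52 SE, unadjusted p = 0.0855 in edgeR's test, adjusted p = 0.997). No member had an unadjusted p under 0.05, and DESeq2 called 0 members. The edgeR fit without the filter on low counts did call Slfn8 higher (adjusted p = 0.0238). Slfn2 had 8.039 and 8.386 CPM in IFN cells, against 7.018 and 6.247 CPM in control cells. Slfn3 had 22.76 and 23.17 CPM in IFN cells, against 36.69 and 22.17 CPM in control cells, and Slfn9 had 68.15 and 72.93 CPM in IFN cells, against 94.90 and 71.62 CPM in control cells. For Slfn2 and Slfn8 both IFN libraries lay above both control libraries, against 17.5% of all genes. Slfn5 had 21 and 2 counts in IFN cells and 14 and 27 counts in control cells. Slfn4 had 6 and 0 counts in IFN cells and 0 and 4 counts in control cells, and Slfn1 had 0 counts in all 4 day 0 libraries. At day 0 the family summed to 111.0 ± 1.34 CPM in IFN cells and 124.3 ± 24.4 CPM in control cells (SD, n = 2 each).

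The IFN difference was larger at day 14 than at day 0 for 2 members by the test of that change. Slfn2 had a change of 4.34 ± 0.59 on the log2 scale (SE, adjusted p = 0.0125) and Slfn3 of 2.76 ± 0.47 (SE, adjusted p = 0.0322), against 0.434% of all genes called in that direction and 0.162% in the other. Slfn8 was just outside the limit, at 3.85 ± 0.74 (SE, adjusted p = 0.0554). Slfn5 had 4.29 ± 1.06 (SE, adjusted p = 0.146), Slfn4 7.59 ± 2.05 (SE, adjusted p = 0.19) and Slfn9 2.41 ± 0.81 (SE, adjusted p = 0.306). Slfn3 lost its call with the replicate number as a block (adjusted p = 0.0508) and with scaling by library size alone (adjusted p = 0.0717). Both genes lost it without control day 14 replicate 1, either IFN day 0 library or either IFN day 14 library, with adjusted p between 0.0577 and 0.193, and Slfn3 also without control day 0 replicate 1 (0.1) or either IFN day 21 library (0.0756 and 0.075). The IFN difference at day 21 was not called larger or smaller than at day 14 for any member or for any other gene tested, no member had an unadjusted p under 0.05, and DESeq2 called 0 members.

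Within the IFN arm, 6 of 7 members rose between day 0 and day 14, against 5.18% of all genes that rose and 5.56% that fell. The comparison shares its IFN day 14 libraries with the comparison between arms. Slfn1 and Slfn4 reached the filter's cutoff in 0 day 0 libraries. Of the 5 members that reached it in every control library, 4 rose at day 14, and 4 at day 21 against day 0. Slfn5 had a log2 fold change of 6.83 ± 0.83 (SE, adjusted p = 0.000851), from 2618 counts over both day 14 libraries and 23 over both day 0 libraries. Of these 23 counts, 21 lay in IFN day 0 replicate 1, and the log2 fold change was 9.37 without that library and 5.91 without IFN day 0 replicate 2. Slfn1 was at least 93.3-fold higher at day 14 than at day 0, against a floor of 3 counts over the day 0 group. Slfn4 rose by a log2 fold change of 5.97 ± 0.90 (SE, adjusted p = 0.00254), or by 4.93 without IFN day 0 replicate 2, while IFN day 0 replicate 1 held all 6 of its day 0 counts. Slfn8 rose by 5.68 ± 0.61 (SE, adjusted p = 0.000446) and Slfn2 by 5.60 ± 0.48 (SE, adjusted p = 0.000131). Slfn3 rose by 1.97 ± 0.34 (SE, adjusted p = 0.00486). The log2 fold change of Slfn9 was 1.66 ± 0.58 (SE, adjusted p = 0.0949) and was not called in the main fit. Of 9 other settings, 4 called Slfn9 higher, among them DESeq2 (adjusted p = 0.0165) and limma with library weights (adjusted p = 1.77e-06). At day 21 against day 0 the same 6 members were called higher, against 5.88% of all genes higher and 4.31% lower. Slfn1 was at least 42.6-fold higher there against the same floor. Slfn9 had a log2 fold change of 0.97 ± 0.57 (SE, adjusted p = 0.325) and was not called. Of the 9 other settings, 3 called Slfn9 higher at day 21, among them limma with library weights (adjusted p = 0.000581). Without either IFN day 0 library Slfn3 lost its call at both days, with adjusted p between 0.0574 and 0.0807. Slfn3 also lost its day 21 call without IFN day 21 replicate 2 (0.0523), and Slfn1 lost its day 21 call without either IFN day 0 library (0.0665 and 0.0714) and in DESeq2 (adjusted p = 0.0617).

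Between day 14 and day 21 of IFN, the level of Slfn4 was higher at day 21 and those of Slfn1, Slfn2, Slfn3, Slfn8 and Slfn9 were lower, differences that some fits called and others did not. For Slfn5 the libraries overlapped, at 29.84 and 38.92 CPM at day 21 and 37.08 and 40.80 CPM at day 14, and none of the fits run called it. Slfn4 had 16.94 and 13.38 CPM at day 21 and 5.967 and 5.453 CPM at day 14. Slfn8 had 290.9 and 277.7 CPM at day 21 and 453.1 and 459.0 CPM at day 14, and Slfn2 had 274.7 and 305.8 CPM at day 21 and 400.1 and 394.2 CPM at day 14. In the fit of all 6 groups none of the 7 members was called, and neither was any other gene (0% in each direction). Slfn4 had a log2 fold change of 1.41 ± 0.64 (SE, adjusted p = 0.768), and the other 6 had values between -1.14 and -0.16. Slfn4 had an unadjusted p of 0.051 and no member was under 0.05 unadjusted, while DESeq2 called 0 members.

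With only the 4 IFN libraries at days 14 and 21, whose replicates lay close together, Slfn4 was called higher at day 21 (log2 1.4, adjusted p = 4.12e-07), against 15.6% of 15564 genes called higher. Slfn1 (-1.15, adjusted p = 0.00329), Slfn2 (-0.46, adjusted p = 4.21e-07), Slfn3 (-0.17, adjusted p = 0.0424), Slfn8 (-0.69, adjusted p = 2.33e-10) and Slfn9 (-0.70, adjusted p = 1.4e-09) were then called lower, against 13.3% of genes called lower. Slfn5 was not called in that fit, at -0.19 (adjusted p = 0.212). In limma with library weights Slfn4 was likewise called higher (9.75% of all genes), and 4 members, Slfn1, Slfn2, Slfn8 and Slfn9, were called lower (6.14% of all genes).

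Without IFN, 2 of the 7 members rose between day 0 and day 21, and none was called over the shorter intervals. In control cells none of the 7 members was called at day 14 against day 0, against 1.55% of all genes called higher and 0.827% called lower. Unadjusted p values under 0.05 were found for Slfn2, Slfn5 and Slfn8, with positive log2 fold changes of 1.26, 2.54 and 1.84, and for Slfn3 at -0.79, and DESeq2 called 3 members higher, against 4.09% of all genes in that fit. Between day 14 and day 21 none was called either, against 0.0174% of all genes called higher and 0.0116% called lower, with unadjusted p under 0.05 for Slfn1 and Slfn4 only and 0 calls in DESeq2. From day 0 to day 21, Slfn2 rose by a log2 fold change of 2.04 ± 0.41 (SE, adjusted p = 0.0209) and Slfn8 by 2.25 ± 0.53 (SE, adjusted p = 0.0355), against 3.82% of all genes called higher and 2.63% called lower. The Slfn2 values were 41.13 and 13.25 CPM at day 21 and 7.018 and 6.247 CPM at day 0, and the Slfn8 values were 22.87 and 19.55 CPM at day 21 and 2.555 and 6.298 CPM at day 0. The change of Slfn2 was 0.97 without control day 21 replicate 1, and that of Slfn8 was 3.04 without control day 0 replicate 2. Slfn2 lost its call without either control day 0 library (adjusted p = 0.0934 and 0.0947). Slfn8 lost its call in 9 of the 12 fits that left out 1 library, with adjusted p up to 0.169. With only the groups compared in the fit neither was called (adjusted p = 0.209 for Slfn2 and 0.156 for Slfn8).

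Slfn9 and Slfn3 were both low in 2 control libraries of different days. In control day 14 replicate 1 Slfn9 stood at 24.51 CPM, and in control day 21 replicate 2 at 18.03 CPM, while the remaining 4 control libraries ranged from 71.62 to 94.90 CPM. Slfn3 stood at 13.34 and 15.96 CPM in those 2 libraries, while the remaining 4 ranged from 20.60 to 36.69 CPM. These 2 libraries also stood apart in other genes. Bnip3, a gene induced by low oxygen, reached 626.4 CPM in the first of them, where the remaining 5 control libraries ranged from 33.92 to 142.8 CPM. Hspa5, a chaperone of the endoplasmic reticulum, reached 25680 CPM in the second, where the remaining 11 libraries ranged from 562.9 to 1828 CPM. The part of these differences in the low Slfn9 and Slfn3 values was not tested.

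Levels of different genes were compared per kb of exon. In IFN cells at day 14 the order was Slfn2 at 239 CPM per kb, Slfn8 at 111, Slfn9 at 37.5, Slfn3 at 26.3, Slfn5 at 6.16, Slfn1 at 2.19 and Slfn4 at 1.44, and no neighbours in this order overlapped between libraries. At day 21 with IFN, Slfn2 at 174 ± 13.2 and Slfn8 at 69.5 ± 2.28 CPM per kb led again (SD, n = 2 each). Slfn3 at 23.6 ± 0.48 and Slfn9 at 23.2 ± 1.91 CPM per kb overlapped there, and Slfn4 at 3.82 ± 0.64 lay above Slfn1 at 0.992 ± 0.107 (SD, n = 2 each). In control cells at day 0, Slfn9 led at 14 ± 2.76 CPM per kb, before Slfn3 at 8.63 ± 3.01 and Slfn2 at 3.99 ± 0.33 (SD, n = 2 each). At day 14 in control cells Slfn2 at 9.55 ± 2.68, Slfn9 at 8.31 ± 5.95 and Slfn3 at 4.98 ± 1.51 CPM per kb (SD, n = 2 each) did not form a clear order: the range of Slfn9 took in that of Slfn2 and overlapped that of Slfn3. Dividing by the longest transcript in place of all exons gave the same order in IFN cells at both later days.

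**Figure D4:**
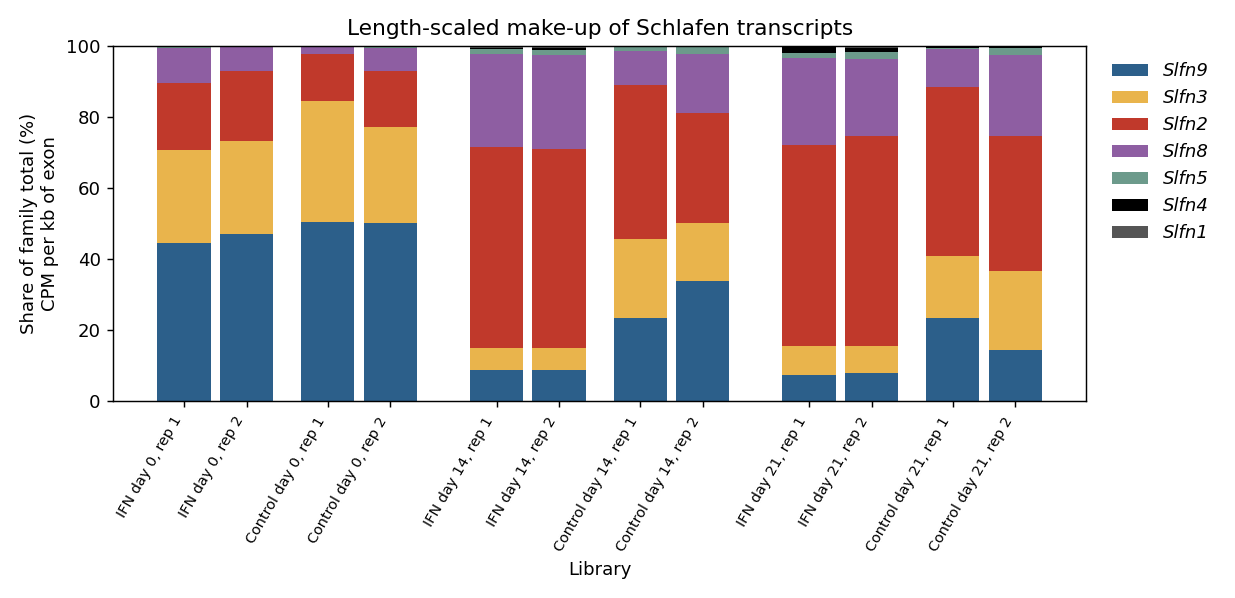
Share of each Schlafen gene in the family's total CPM per kb of exon (vertical axis, percent) in each of the 12 libraries, stacked in the order of the legend from the bottom. Slfn9 is the largest share in all 4 day 0 libraries and Slfn2 in 7 of the 8 later ones, and Slfn8 is widest in IFN libraries at day 14.

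The shares of single members in the family's sum also differed between the arms at day 14, as the plot of shares shows. Slfn2 held 56.7% and 55.9% of the length-scaled total in IFN cells at day 14, against 43.5% and 31.0% in control cells. Slfn8 held 26.1% and 26.5% in IFN cells, against 9.51% and 16.5% in control cells, and Slfn9 held 8.75% and 8.95% in IFN cells, against 23.4% and 33.9% in control cells. For each of these 3 genes the day 14 groups did not overlap. At day 21 Slfn2 held 56.7% and 59.1% in IFN cells, against 47.5% and 38.0% in control cells, and Slfn9 held 7.51% and 7.9% in IFN cells, against 23.4% and 14.4% in control cells. Slfn8 held 24.4% and 21.8% in IFN cells at day 21, against 10.7% and 22.8% in control cells, so its groups overlapped at that day. No test of the shares was run. At day 0 Slfn9 was the largest share, with 44.6% and 47.2% in IFN cells and 50.4% and 50.2% in control cells. Shares sum to a fixed total, so they show unequal change and not which gene stayed constant.

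The pathway above the Schlafen genes was read from 15 listed genes, all tested. At day 14, 7 of them rose and none fell, and at day 21, 6 rose and none fell, with medians of 0.44 and 0.66 on the log2 scale. Over all genes tested, 1.3% rose at day 14 and 0.839% at day 21. This list and the list of effectors below were chosen with earlier results of these data known. The receptor chains were not called, with Ifnar1 at 67.61 ± 6.57 CPM in IFN cells and 74.19 ± 2.51 CPM in control cells at day 14, and Ifnar2 at 36.29 ± 2.34 CPM in IFN cells and 35.11 ± 0.06 CPM in control cells (SD, n = 2 each; adjusted p = 0.858 and 0.946). Stat2 and Irf9, which bind the response element as part of a complex, rose at day 14: Stat2 by a log2 fold change of 3.57 ± 0.32 (SE, adjusted p = 0.000377) and Irf9 by 2.83 ± 0.22 (SE, adjusted p = 0.000158). Irf7, which amplifies the response, rose by 7.21 ± 0.42 (SE, adjusted p = 4.48e-05). Of 25 listed antiviral effectors, all tested, 23 rose and none fell at day 14, with a median log2 fold change of 4.64, and 22 rose and none fell at day 21, with a median of 3.37. Examples at day 14 were Dhx58, an RNA sensor (4.87), Trim25, a ubiquitin ligase (2.53), Xaf1, a pro-apoptotic protein (3.93), and Zbp1, a sensor of Z-form nucleic acid (6.31).

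Genes around the cluster gave no call between the arms. Of 17 listed relatives and genes around the locus, 11 were tested and none was called at day 14 or day 21. The pseudogene Slfn10-ps, between Slfn8 and Slfn2, had 112 and 87 counts in IFN cells and 30 and 46 counts in control cells at day 14, with a log2 fold change of 1.35 ± 0.46 (SE, adjusted p = 0.203). At day 21 it was 2.00 ± 0.48 (SE, adjusted p = 0.112). The pseudogene rose within the IFN arm at day 14 against day 0, by 2.16 ± 0.48 (SE, adjusted p = 0.0176), and so did Rffl, a ubiquitin ligase, by 1.13 (adjusted p = 0.0152) and Nle1, a ribosome assembly factor, by 1.21 (adjusted p = 0.0423). These were 3 of the 11 tested, against 5.18% of all genes that rose. Slfn10-ps shares 2.45% of the 100-base windows of Slfn8 and 3.04% of those of Slfn9. Slfn14, a long relative known from red blood cells, was not tested, with 2 and 5 counts in IFN cells and 0 and 6 counts in control cells at day 14. Among other genes of the locus, Rffl had a log2 fold change between the arms of 0.69 (adjusted p = 0.213), Nle1 0.51 (adjusted p = 0.546) and Taf15, an RNA-binding protein, 0.38 (adjusted p = 0.738) at day 14. Since Slfn1 and Slfn2 are known for holding back cell growth, 20 cell cycle genes were also listed. None of the 20 was called between the arms at day 14 or day 21, with medians of -0.15 and -0.06, which again lies near the shares over all genes. The smallest adjusted p at day 14 was that of the cell cycle inhibitor Cdkn1b (log2 -0.88, adjusted p = 0.0995). Within the IFN arm 1 of the 20, Cdkn1b, was called lower at day 14 against day 0 (log2 -1.14, adjusted p = 0.0132), against 5.56% of all genes. It was also called lower at day 21 against day 0 (log2 -1.25, adjusted p = 0.00873), against 4.31% of all genes.

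For each member the 3 genes most like it in level over the 12 libraries are given. These Pearson r values of log2 CPM describe 6 groups of 2 libraries that share the IFN difference, and carry no test. For Slfn8 the closest of 17288 genes were Usp18 (0.9956), Oasl2 (0.9933) and Oas1b (0.9924), and for Slfn2 they were Rtp4 (0.9927), Apol9b (0.9906) and Irf9 (0.9873). For Slfn1 they were Adar (0.9871), Apol9b (0.9842) and Cngb3 (0.9832), and for Slfn4 Apol9a (0.9688), Trim25 (0.9655) and Irf7 (0.9609). For Slfn5 they were Ifi213 (0.9772), H4c8 (0.9723) and Ifi208 (0.972), and for Slfn3 Setdb2 (0.98), Pml (0.9614) and Ptpre (0.9608). Slfn9 had the lowest maximum, with Ranbp10 (0.9563), Mov10 (0.938) and Zfp287 (0.9366). Between members, r was highest for Slfn1 with Slfn2 (0.982) and lowest for Slfn5 with Slfn9 (0.556). The neighbours and close copies Slfn8 and Slfn9 had an r of 0.666, and the close copies Slfn3 and Slfn4 had 0.857.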

How the data were processed

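Messenger RNA was captured on beads and sequenced, with 2 libraries in each of 6 groups, per the labels. The submitters' processing notes name HISAT2, SAMtools and featureCounts and the build mm10. The authors deposited raw counts per gene and library. The annotation, strand setting, tool versions and treatment of reads with several matches are not given in the sources used here.

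The counts went into edgeR 4.0.16 under R 4.3.3, with filterByExpr over the 6 groups (17289 genes kept, all 7 members among them), TMM scaling, 1 mean per group over all 12 libraries, and the robust quasi-likelihood test, which had 6 residual degrees of freedom. P-values were adjusted by Benjamini-Hochberg over all genes kept and called below 0.05. SE is the log2 fold change divided by the square root of F. Log2 CPM used a prior count of 2. A group at 0 counts was set to a floor of 3 counts over the group; floors and intervals cover counting error only. Library totals ran from 29772425 to 38908453 counts, so a gene at 0 may be expressed below that depth. Exon lengths and positions came from GENCODE M21, whose symbols match 53292 of the table's 55291, and promoters from RefSeq. Alignments used Biopython 1.88.

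The members and lists were chosen with earlier results of these data known. Named were the 7 members, for each the 3 genes with the highest r, and from each list up to 4 genes with the smallest adjusted p at day 14, plus Stat2, Irf9, Ifnar1, Ifnar2, Slfn10-ps and Slfn14; 1 gene of this rule is not reported here. Bnip3, Hspa5 and CT010467.1 were named after their values were seen. Alternatives were RLE size factors, library size alone, DESeq2 1.42.0, limma 3.58.1 (voom with library weights), no filter, a filter of 1 CPM in 2 libraries, only the groups compared, the replicate number as a block, 2 outlying control libraries left out together (day 0 replicate 1, with CT010467.1 at 21080 CPM against 99.28 to 8633 CPM in the other 11, and day 21 replicate 2, with Hspa5 at 25680 CPM), each library left out, and the longest transcript as gene length. With 2 libraries a group, an exact permutation test of 1 gene cannot go below p = 0.333, so none was used. The test code was tested on simulated data.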

Additional observations from a re-analysis of the deposited data

Results flagged for a closer look

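For 2 members the difference between IFN and control cells itself differed between day 14 and day 0, by the interaction term of edgeR's test over all genes. The log2 difference was 4.34 larger at day 14 for Slfn2 (adjusted p = 0.0125) and 2.76 larger for Slfn3 (adjusted p = 0.0322). Over all genes tested, 0.434% were called in that direction and 0.162% in the other. Neither call held in all 12 fits that left out a single library. In those fits the value ran from 4.07 to 4.66 for Slfn2 and from 2.33 to 3.11 for Slfn3. Slfn3 also lost its call with scaling by library size alone (adjusted p = 0.0717) and with the replicate number as a block (adjusted p = 0.0508). In DESeq2, Slfn4, Slfn5, Slfn8 and Slfn9 were called larger at day 14 as well, and in limma with library weights Slfn8 and Slfn9 were. The IFN difference was 4.64 at day 14 and 0.31 at day 0 for Slfn2, and 2.40 at day 14 and -0.36 at day 0 for Slfn3. Both IFN libraries lay above both control libraries at day 14 for either gene, and at day 0 for Slfn2 but not for Slfn3. How much IFN exposure the day 0 cells had received is not stated in the labels. No group had the 4 samples needed for a check of single outlying libraries.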

How the results depend on the processing

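With 2 libraries a group, single libraries decide many calls, and depth limits Slfn1 and Slfn4, which had 0 to 10 counts in control libraries. Calls of Slfn2, Slfn4 and Slfn8 at day 14 held in all 12 fits that left out 1 library and under all other settings. RLE size factors and the filter of 1 CPM in 2 libraries changed no count of calls by over 1.5 times. The causes of the changes below were not tested. The outlying control libraries are day 0 replicate 1 and day 21 replicate 2, and only the second of them is among the pair with low Slfn9 and Slfn3.

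Members called higher with IFN at day 14 (6) ran from 3 to 7 when single libraries were left out. At day 21 (5) they ran from 1 to 7, and were 3 with limma and 1 with only the groups compared; at day 0 (0) there was 1 without the filter. For the change of the IFN difference between days 0 and 14 (2) the count was 1 with library size alone, 6 with DESeq2, 4 with limma, 6 without the filter, 1 with the replicate block and 0 to 4 with single libraries left out. For the change between days 14 and 21, the lower calls (0) were 2 without the filter and 1 without both outlying control libraries.

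Within the IFN arm at day 21 against day 14, limma called 1 higher and 4 lower, and only the groups compared gave 1 higher and 5 lower, in place of 0. In control cells at day 14 against day 0, the higher calls (0) were 3 with DESeq2, 3 without the filter, 1 without both outlying control libraries and 0 to 1 with single libraries left out, and the lower calls (0) were 2 without the filter. At day 21 against day 14, the higher calls (0) were 2 without the filter, 2 without both outlying control libraries and 0 to 1 with single libraries left out. At day 21 against day 0, the higher calls (2) were 1 with library size alone, 0 with limma, 5 without the filter, 0 with only the groups compared, 1 without both outlying control libraries and 0 to 2 with single libraries left out, and the lower calls (0) were 1 without the filter and 0 to 2 with single libraries left out.

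None of the reversed signs belonged to a called value. Without both outlying control libraries the log2 fold change at day 0 was 0.051 for Slfn3 and -0.20 for Slfn4. In control cells it was 0.55 for Slfn9 at day 21 against day 14, and 0.50 for Slfn3 and 0.031 for Slfn9 at day 21 against day 0. With single libraries left out, the IFN difference at day 0 ran from -0.68 to 0.057 for Slfn3, -3.98 to 4.61 for Slfn4 and -3.26 to 0.18 for Slfn5. Slfn5 in the IFN arm at day 21 against day 14 ran from -0.38 to 0.0060. In control cells Slfn4 ran from -3.98 to 2.33 at day 14 against day 0, and Slfn3 from -0.91 to 0.087 at day 21 against day 0. At day 21 against day 14 in control cells, Slfn2 ran from -0.29 to 1.37, Slfn3 from -0.12 to 0.87, Slfn5 from -1.23 to 0.64, Slfn8 from -0.25 to 1.62 and Slfn9 from -1.49 to 0.89. The change of the IFN difference from day 14 to day 21 ran from -0.82 to 1.05 for Slfn5 and -1.58 to 0.81 for Slfn9.

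Libraries with the same replicate number share only that number in the labels. Their deviations from the group means had correlations of -0.05 to 0.11 over 15 pairs of groups, 2 of them over 0.1, and the block changed no count of member calls by over 1.5 times except the one given above.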
